A study of Canis lupus familiaris with 39 samples.

Results

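The genes of the proteasome were examined in RNA from 10 normal tissues of the dog. A probeset is a set of short array probes that is read as 1 value, and the members were all probesets whose single gene symbol begins with PSMA, PSMB, PSMC, PSMD or PSME. This rule took 80 of the 42860 probesets on the array and 40 of its 15115 gene symbols. Of these 40 genes, 38 encode parts of the proteasome, its activators or chaperones of its assembly. The other 2, PSMC3IP and PSME3IP1, carry a matching symbol because their proteins bind PSMC3 or PSME3, and they are not subunits. PSMB7, PSMC1 and PSMD1 had no probeset with a single symbol, and PSMD4 and PSMD5 were found only on probesets that carry several symbols, so these 5 subunits were not analysed here. Where a gene had several probesets, the brightest on average stands for it.

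The proteasome is the protease that degrades proteins tagged with ubiquitin. Its 20S core is a barrel of stacked rings, with outer rings of alpha subunits (PSMA genes) and inner rings of beta subunits (PSMB genes), and PSMB5, PSMB6 and PSMB7 carry the active sites in most cells. The 19S regulatory particle (PSMC and PSMD genes) binds the ends of the core, and its ATPases unfold the substrates and feed them in. In cells that respond to interferon gamma and in cells of the immune system, PSMB8, PSMB9 and PSMB10 replace PSMB5, PSMB6 and PSMB7 in newly built cores. The resulting immunoproteasome yields peptides suited to MHC class I molecules, and the activator PA28 (PSME1 and PSME2) is induced by the same signal.

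The tissues were brain (cerebrum), heart, jejunum, kidney, liver, lung, lymph node (peripheral), pancreas, skeletal muscle and spleen, with 4 arrays per tissue and 3 for pancreas, 39 arrays in all. Per the study's methods the samples came from 4 dogs, 2 males and 2 females between 3 months and 6 years old, of which 2 were beagles and 2 were of mixed breed, and all tissue was pathologically normal. The authors left out 1 pancreas sample as an outlier before the data were normalized. Whole tissue was used, so fewer cells of a type and less RNA per cell cannot be told apart, and every value is relative to the rest of the array.

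Values are normalized log2 probe intensities, and a difference of 1 is a 2-fold change of signal. Each tissue was set against the mean of the other 9 by limma, with p-values adjusted over all probesets, and a gene is said to be called where the adjusted p is at or below 0.001. Tissue markers went with the labels, for example SNAP25 in brain, TNNT2 in heart, UMOD in kidney and ALB in liver, except that the astrocyte gene GFAP had a mean log2 value of only 5.0 in brain. A list of 6 measured genes of pancreatic acinar cells (CPA1, CPB1, PNLIP, CEL, CELA1 and CUZD1) stood apart in 5 arrays outside the pancreas. Its mean log2 value was 13.46 in pancreas, and 6.77, 3.71, 7.55 and 9.48 in skeletal muscle replicates 1 to 4. It was 5.94 in brain replicate 3 and 6.0 in lymph node replicate 4, while no array of the other tissues exceeded 5.39. Results of skeletal muscle, brain and lymph node are therefore given with and without those 5 arrays. Without them skeletal muscle keeps 1 array, whose spread is taken to be that of the other tissues.

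An F test over the 10 tissues called 24 of the 40 member genes, against 54.6% of all probesets. The share of calls was near that of all probesets, but the 2 sets are not matched for brightness. Of the 42860 probesets 16205 reached a tissue mean of 6, while the brightest probeset stands for each member gene. The roles were unequal within the family. All 3 inducible catalytic subunits, all 3 PA28 genes and PA200 (PSME4) were called, as were 4 of 5 ATPases of the 19S base. Of the alpha ring 3 of 8 genes were called, and of the 19S lid 3 of 8. Among the 40 genes, PSMB8 had the widest range of tissue means at 6.21 log2 units, followed by PSMB9 at 5.40, PSMB10 at 3.9, PSME2 at 3.07 and PSME4 at 2.56. The narrowest ranges were those of PSMA8 at 0.17, PSMB11 at 0.19, PSMA3 at 0.74, PSMC3IP at 0.84 and PSMD14 at 0.89. The first 2 of these were dim in every tissue.

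**Figure D1:**
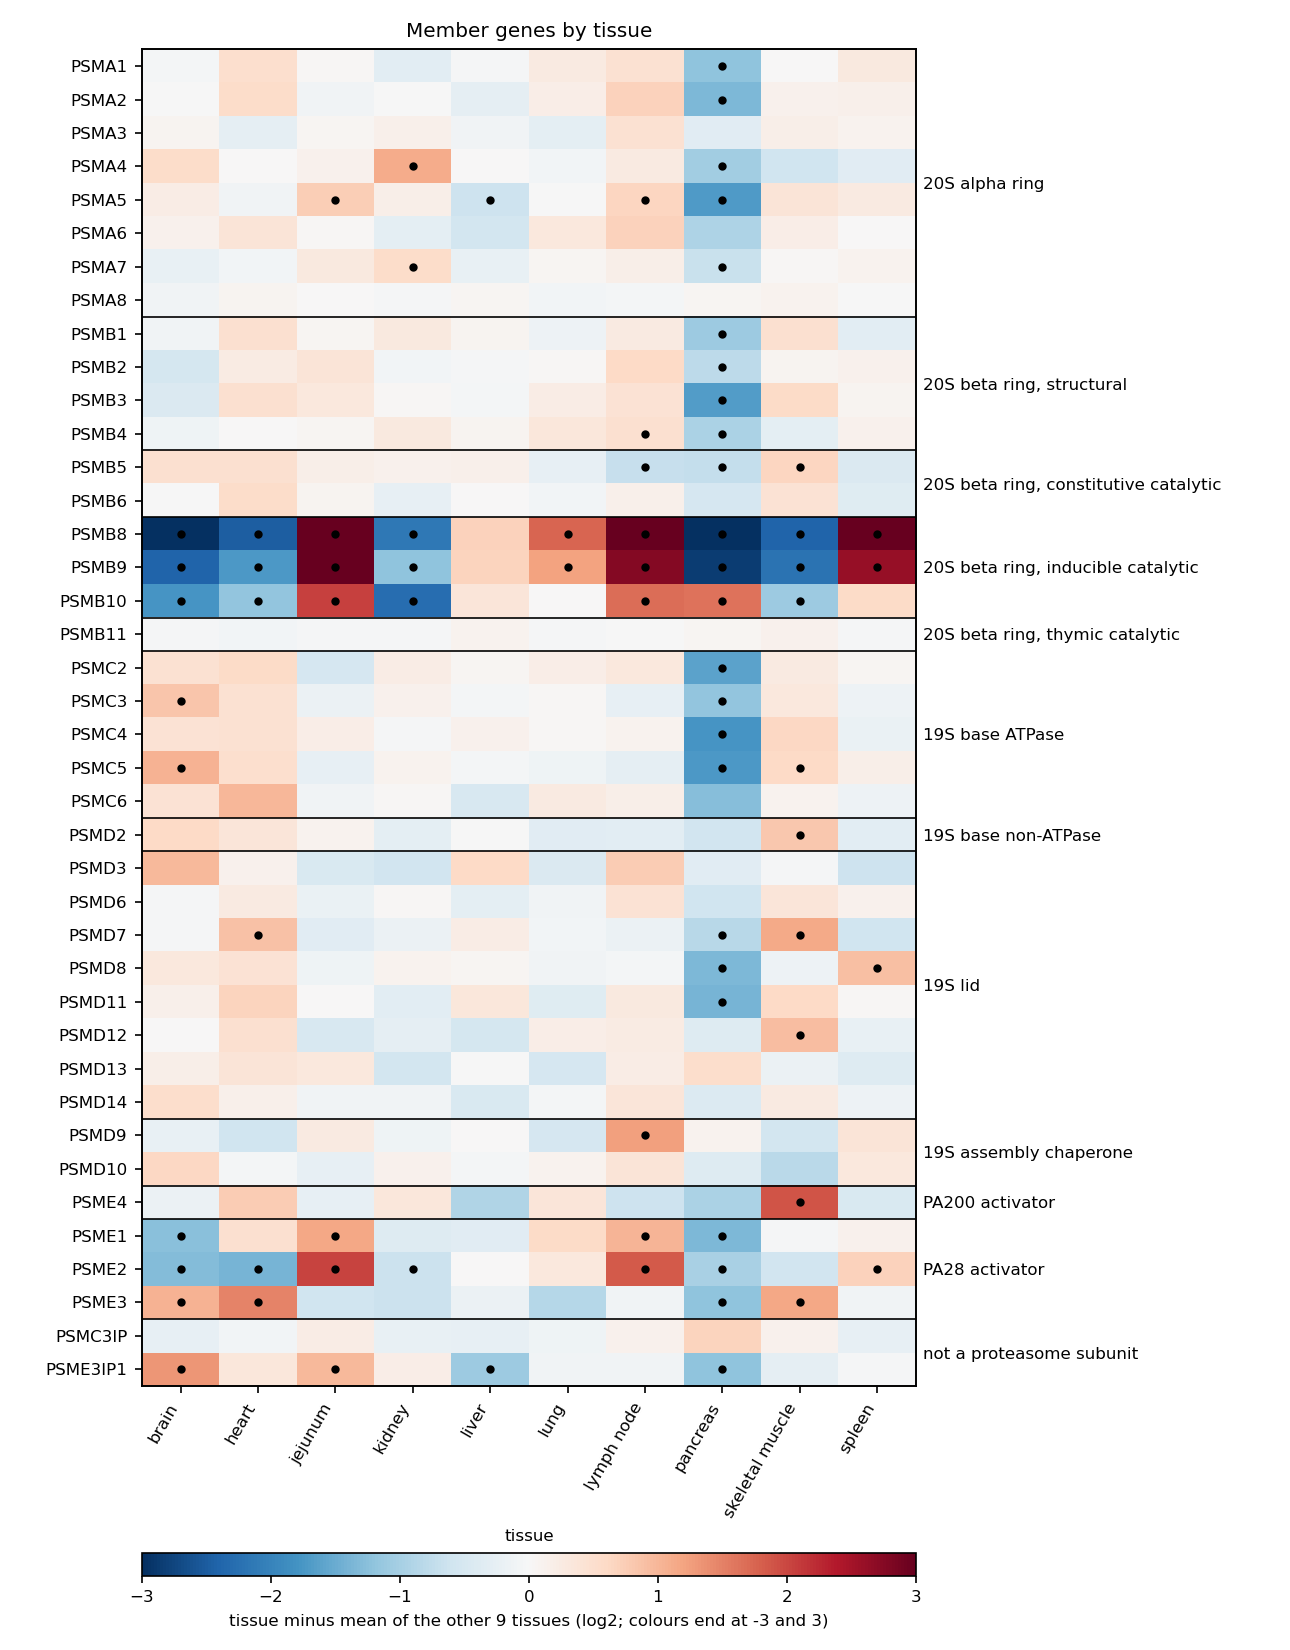
Difference in log2 value between each tissue (columns) and the mean of the other 9 tissues for the 40 member genes (rows, grouped by role); the colour scale ends at -3 and 3, and a black dot marks a call at an adjusted p of 0.001. PSMB8, PSMB9 and PSMB10 change colour across tissues far more than the alpha ring or the 19S genes, and pancreas has 23 lower calls among the 40 genes and a higher call for PSMB10.

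The count of calls per tissue was uneven. In pancreas 1 member gene was higher (2.5%; 13.4% of all probesets) and 23 were lower (57.5%; 11.1% of all probesets). In lymph node 8 were higher (9.95% of all probesets) and 1 was lower (6.93%). In skeletal muscle 7 were higher (7.06%) and 3 lower (8.14%), and in jejunum 7 were higher (6.12%) and 0 lower (3.85%). Pancreas was thus the tissue in which the lower calls most exceeded those of all probesets. Brain had 4 higher (11.2%) and 5 lower (7.74%), heart 2 higher (7.47%) and 4 lower (6.55%), and kidney 2 higher (7.41%) and 4 lower (3.94%). Spleen had 4 higher (5.38%) and 0 lower (4.83%), lung 2 higher (7.26%) and 0 lower (4.22%), and liver 0 higher (6.72%) and 2 lower (6.15%). In all, 28 of the 40 genes were called in at least 1 tissue. The remaining 12 were PSMA3, PSMA6, PSMA8, PSMB6, PSMB11, PSMC6, PSMD3, PSMD6, PSMD10, PSMD13, PSMD14 and PSMC3IP.

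These counts depend on how arrays are put on a common scale. When each array was shifted to an equal level of 13 housekeeping genes, each centred on its own mean, the calls became 2 higher and 13 lower in pancreas, 5 and 8 in lymph node, 2 and 3 in spleen, 10 and 3 in heart, 11 and 2 in skeletal muscle, 1 and 2 in lung, and 2 and 3 in kidney. With the uncentred housekeeping median they became 2 and 2 in pancreas, 3 and 2 in lymph node, 4 and 3 in jejunum, 1 and 5 in brain, 3 and 2 in heart, and 6 and 2 in skeletal muscle. These shifts moved the median of all probesets by up to 0.82 log2 units in pancreas and by -0.68 in lymph node. With array medians set equal the calls in kidney became 2 higher and 2 lower.

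PSMB8, the inducible counterpart of PSMB5, differed widely between tissues. Its log2 values were 9.59, 10.13, 9.83 and 10.63 in lymph node, 10.15, 10.30, 9.44 and 10.11 in jejunum, and 9.60, 9.99, 9.21 and 9.56 in spleen. Lung followed at 8.6, 7.33, 8.80 and 8.18, and liver at 7.63, 6.63, 6.84 and 7.95. Kidney had 4.79, 4.28, 5.14 and 4.63, skeletal muscle 5.48, 4.52, 3.95 and 3.98, and heart 4.30, 4.51, 4.38 and 4.49. The lowest values were those of brain at 4.26, 3.80, 3.65 and 3.87 and of pancreas at 3.69, 3.81 and 4.02. In the order of the means the arrays of spleen and lung, of liver and kidney, and of heart and brain did not overlap, while the other neighbours did. The means of the 5 lowest tissues, 4.71 in kidney to 3.84 in pancreas, lay near the array medians of 3.95 to 4.11. PSMB8 was thus dim there, and the order among these 5 tissues is not read. Against the other 9 tissues PSMB8 was higher by 3.78 in lymph node (SE 0.23, 13.7-fold, adjusted p = 3.16e-14), by 3.73 in jejunum (SE 0.23, 13.2-fold, adjusted p = 2.39e-14), by 3.27 in spleen and by 1.75 in lung. It was lower in pancreas (-3.12), brain (-3.06), heart (-2.47), skeletal muscle (-2.40) and kidney (-2.15), all of them calls. A second probeset of PSMB8 gave smaller differences of 3.15 in lymph node, 2.35 in jejunum and 2.37 in spleen, all calls, and 0.80 in lung (adjusted p = 0.0374), where the call was lost. It was called lower in the same 5 tissues, by -1.50 in pancreas to -1.91 in brain.

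PSMB9, the inducible counterpart of PSMB6, had nearly the same order. Its log2 values were 11.97, 11.63, 11.80 and 11.98 in jejunum, 11.39, 11.49, 11.22 and 11.81 in lymph node, and 11.21, 11.52, 11.07 and 11.59 in spleen. The arrays of these 3 tissues stood above every other array, and lymph node overlapped with both others while jejunum and spleen did not overlap. Lung had 10.50, 9.15, 10.50 and 10.24, liver 9.75, 9.58, 9.56 and 9.53, and kidney 8.06, 7.45, 8.13 and 8.04. The tissue means below were 7.44 in heart, 7.0 in skeletal muscle, 6.84 in brain and 6.44 in pancreas, and arrays of these neighbours overlapped. Skeletal muscle was the most scattered of the 10 tissues for PSMB9, with values of 8.02, 7.15, 5.55 and 7.27 (SD 1.04, n = 4). PSMB9 was higher by 3.16 in jejunum (SE 0.27, adjusted p = 3.76e-11), by 2.75 in lymph node, by 2.61 in spleen and by 1.22 in lung, and lower by -2.84 in pancreas, -2.40 in brain, -2.23 in skeletal muscle, -1.73 in heart and -1.20 in kidney. Over the 10 tissue means PSMB8 and PSMB9 had a Pearson r of 0.993. The same 39 arrays lie behind both, and the value is a description.

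**Figure D2:**
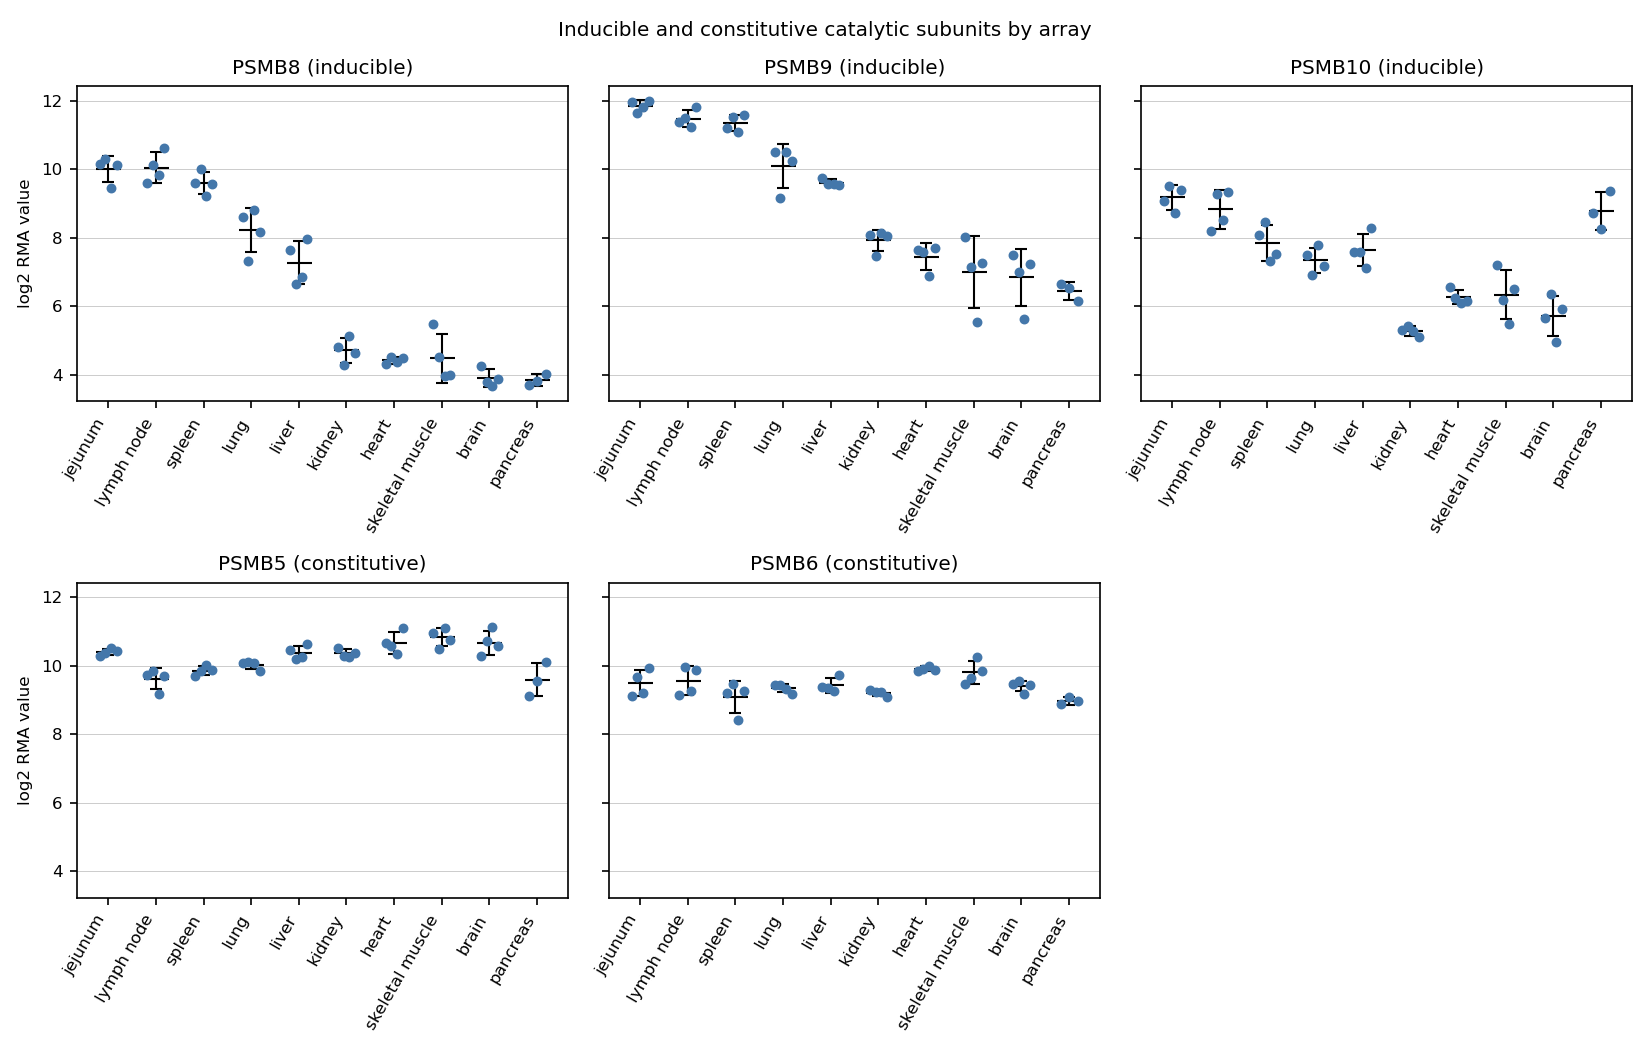
Log2 values of PSMB8, PSMB9, PSMB10, PSMB5 and PSMB6 in each of the 39 arrays, by tissue in the order of the PSMB9 mean; points are arrays, black bars tissue means and error bars the SD. The inducible PSMB8 and PSMB9 span 6.21 and 5.40 log2 units between tissue means, against 1.24 for PSMB5 and 0.94 for PSMB6, and the 3 pancreas arrays are high for PSMB10 alone among the inducible genes.

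PSMB10, the inducible counterpart of PSMB7, broadly followed the other inducible genes except in the pancreas. It was high in jejunum at 9.07, 9.50, 8.72 and 9.40 and in lymph node at 8.20, 9.29, 8.52 and 9.33. Spleen had 8.06, 8.47, 7.31 and 7.52, liver 7.58, 7.59, 7.11 and 8.27, and lung 7.49, 6.90, 7.77 and 7.17. Brain had 5.67, 6.34, 4.95 and 5.93, and the 4 kidney arrays lay close together at 5.29, 5.43, 5.27 and 5.09. The pancreas arrays had 8.72, 8.26 and 9.36, within the range of lymph node and jejunum, where PSMB8 and PSMB9 had their lowest tissue means in the pancreas. PSMB10 was higher by 2.06 in jejunum (SE 0.25), by 1.68 in lymph node (SE 0.25) and by 1.62 in pancreas (SE 0.28, 3.08-fold, adjusted p = 1.80e-05). It was lower in kidney (-2.27), brain (-1.78), heart (-1.17) and skeletal muscle (-1.10). Within an array, PSMB10 minus PSMB9 was 2.34 on average in pancreas (1.73 to 3.21), and the means of the other tissues ran from -3.51 in spleen to -0.67 in skeletal muscle. Over tissue means the r between PSMB9 and PSMB10 was 0.612, and it was 0.918 without pancreas.

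The call of PSMB10 in pancreas was lost without pancreas replicate 3 (difference 1.33, adjusted p = 0.00197 by limma), and over all alternatives its difference ran from 0.88 to 2.44. A second PSMB10 probeset was dim in every tissue, with a highest tissue mean of 4.33, and differed by 0.14 in pancreas (adjusted p = 0.194). In the RefSeq gene table the gene next to PSMB10 is CTRL, a chymotrypsin-like protease of pancreatic juice, which was looked up after the values of PSMB10 were seen. CTRL had log2 values of 13.09, 12.98 and 12.76 in the pancreas arrays and 3.72 to 7.37 in the 36 others. In skeletal muscle replicates 1 to 4 CTRL was at 5.10, 3.75, 6.94 and 7.37, and PSMB10 at 7.19, 6.17, 5.47 and 6.49, so PSMB10 was lowest of the 4 in replicate 3, where CTRL was at 6.94. Whether transcripts of CTRL take part in the PSMB10 signal of the pancreas was not tested.

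**Figure D3:**
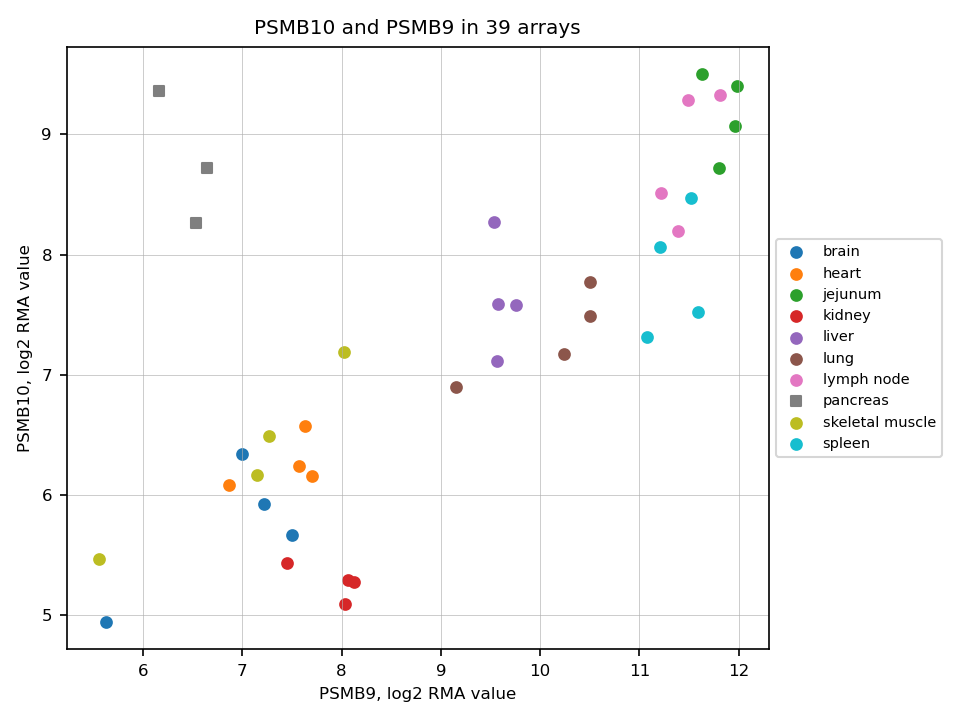
Log2 value of PSMB10 (vertical axis) against PSMB9 (horizontal axis) in the 39 arrays, 1 point per array, with pancreas drawn as squares. The 3 pancreas arrays have PSMB10 values of 8.26 to 9.36 at PSMB9 values of 6.16 to 6.64, apart from the other 36 arrays.

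PSMB5, the constitutive subunit with the chymotrypsin-like site, varied less and had another order of tissues, with an r of -0.453 with PSMB8 over the 10 tissue means and of -0.808 without pancreas. It was highest in skeletal muscle at 10.96, 10.49, 11.10 and 10.75, in heart at 10.66, 10.58, 10.34 and 11.09, and in brain at 10.27, 10.72, 11.12 and 10.56. Jejunum, liver and kidney had means of 10.39, 10.38 and 10.36. Lung, spleen, lymph node and pancreas lay below, with means of 10.02, 9.86, 9.62 and 9.59. Kidney and lung arrays did not overlap, and all other neighbours in this order did. PSMB5 was higher by 0.65 in skeletal muscle (SE 0.13, adjusted p = 2.15e-04), and lower by -0.69 in lymph node (SE 0.13, adjusted p = 1.04e-04) and by -0.72 in pancreas (SE 0.15, adjusted p = 2.34e-04). With the uncentred housekeeping shift the pancreas difference turned to 0.10, and without the 5 arrays with acinar markers the skeletal muscle difference was 0.34 and no call. The other bright PSMB5 probeset, highest in liver in the mean, made none of these 3 calls, with differences of 0.21 in skeletal muscle (adjusted p = 0.537), -0.58 in lymph node (adjusted p = 0.0703) and -1.09 in pancreas (adjusted p = 0.00191).

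PSMB6, the constitutive subunit with the caspase-like site, passed neither the F test (adjusted p = 0.00197) nor any tissue contrast. Its tissue means ran from 9.91 in heart to 8.97 in pancreas, and the arrays of every pair of neighbours in that order overlapped. The pancreas arrays had 8.87, 9.08 and 8.96, the heart arrays 9.85, 9.91, 10.00 and 9.88, and spleen replicate 3 was the lowest of all arrays at 8.41. PSMB11, the thymus subunit that takes the place of PSMB5, was dim in every tissue, with tissue means of 3.44 to 3.62 and no call. Thymus was not among the tissues.

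Lymph node and spleen, the 2 lymphoid organs, were also set together against the mean of the other 8 tissues. PSMB8 was higher in them by 3.96 (SE 0.18, 15.6-fold, adjusted p = 3.81e-18), PSMB9 by 3.01 (SE 0.20, 8.07-fold, adjusted p = 8.11e-14) and PSMB10 by 1.27 (SE 0.18, 2.42-fold, adjusted p = 9.94e-07). In spleen alone PSMB10 differed by 0.58 (adjusted p = 0.0869) and was not called, and under the uncentred housekeeping shift the difference of both organs was 0.74 (adjusted p = 0.00175) and no call. PSMB5 was lower by -0.63 (SE 0.10, adjusted p = 4.70e-06; its other bright probeset gave -0.54 with adjusted p = 0.0202 and no call), and PSMB6 differed by -0.12 (adjusted p = 0.384) and was not called. Of the 40 member genes 8 were higher (12.3% of all probesets) and 1 was lower (10.6% of all probesets). Besides the inducible genes the higher ones were PSME1, PSME2, PSMA5, PSMB4 and PSMD9. Under the centred housekeeping shift 4 were higher and 11 lower, and under the uncentred one 3 and 4, with PSMB8, PSMB9, PSMB10 and PSME2 higher and PSMB5 lower under the centred shift. The jejunum, which is not one of these organs, stands among the other 8 in this contrast although its PSMB8 and PSMB9 values lay with theirs. Against the median instead of the mean of the other 8, the differences were 5.22 for PSMB8 and 3.73 for PSMB9.

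The differences between partner subunits within an array show the change in 1 number. Levels of different probesets cannot be compared, so only the change between tissues is read. PSMB8 minus PSMB5 averaged 0.43 in lymph node (SD 0.47, n = 4), -0.27 in spleen and -0.39 in jejunum. It was -1.80 in lung and -3.12 in liver, and between -5.65 in kidney and -6.77 in brain for the other 5 tissues. PSMB8 was dim in those 5 tissues, so their order in this difference is not read. The lymphoid organs exceeded the other 8 tissues by 4.59 in this difference, where the pooled SD between arrays of a tissue was 0.50. PSMB9 minus PSMB6 averaged 2.36 in jejunum, 2.26 in spleen, 1.92 in lymph node, 0.76 in lung and 0.18 in liver, and -1.29 in kidney. It lay between -2.47 in heart and -2.81 in skeletal muscle for the remaining 4 tissues, and the lymphoid organs exceeded the other 8 tissues by 3.14 (pooled SD 0.61). PSMB10 could not be set against PSMB7, which was not analysed here.

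**Figure D4:**
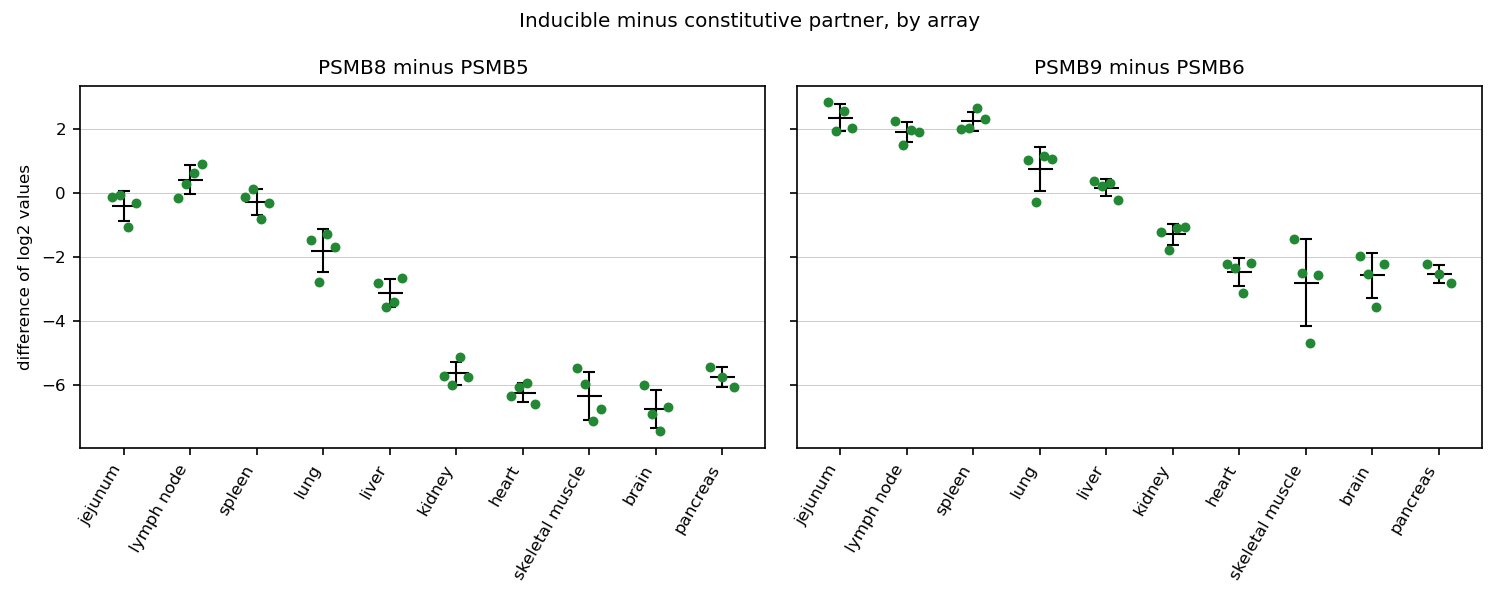
Difference in log2 value within each array between the inducible and the constitutive partner, PSMB8 minus PSMB5 and PSMB9 minus PSMB6, by tissue; points are arrays, bars means and error bars the SD. Lymph node, spleen and jejunum lie at the top, lung and liver between, and the 5 other tissues at the bottom in both pairs.

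Markers of leukocytes also differed between the tissues. The mean log2 value of 9 measured lymphocyte genes (such as CD3E and CD79A) was 8.93 in lymph node, 7.29 in spleen, 5.91 in jejunum, 4.87 in lung and 4.11 in liver, and 3.65 to 3.9 in the other tissues. That of 8 myeloid genes was 9.47 in spleen, 8.63 in lymph node, 7.95 in liver, 7.65 in lung, 6.10 in jejunum and 5.28 to 5.75 elsewhere. In the mean, jejunum was above spleen for PSMB9 and below it for both leukocyte lists. The lymphocyte genes were not uniform in this. MS4A1 had the widest gap, at 4.01 in jejunum and 7.63 in spleen. CD79B (3.63 against 6.36), PTPRC (6.05 against 9.2) and CD2 (7.11 against 9.31) were also well below spleen. The T-cell genes CD3D (8.54 against 8.82), CD3E (6.87 against 7.22) and LCK (7.15 against 7.75) lay closer together. Each of these T-cell genes was called higher in both organs. CD79A was dim in both, and CD52 alone was higher in jejunum (5.89 against 4.73). Over the 10 tissue means PSMB9 had an r of 0.818 with the lymphocyte list and of 0.774 with the myeloid list. The values were 0.849 and 0.796 for PSMB8, and only 0.629 and 0.436 for PSMB10. Within tissues, over the 39 arrays, those of PSMB9 were 0.105 and 0.566. The part of leukocyte content in the differences of PSMB8, PSMB9 and PSMB10 was not tested.

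PSME1 and PSME2, which form the heteromeric PA28 ring that opens the core to peptides, did not vary to the same extent. PSME2 had log2 values of 10.28, 10.69, 10.47 and 10.63 in jejunum and 10.10, 10.51, 10.29 and 10.52 in lymph node, which stood above all other arrays. Spleen had 9.54, 9.81, 8.88 and 9.10, lung 9.16, 8.52, 9.21 and 9.03, and liver 8.61, 8.80, 8.57 and 8.86. Heart was lowest in the mean at 7.36, 7.79, 7.17 and 7.47. PSME2 was higher by 2.02 in jejunum (SE 0.14, adjusted p = 3.25e-13), by 1.84 in lymph node and by 0.70 in spleen. It was lower in heart (-1.39), brain (-1.29), pancreas (-0.97) and kidney (-0.65), all of them calls. In the lymphoid organs together it was higher by 1.43 (SE 0.11, adjusted p = 8.72e-13). The other bright PSME2 probeset made no call in kidney (-0.38, adjusted p = 0.123 by limma) or in spleen (0.75, adjusted p = 0.00155). It was called lower in skeletal muscle (-0.77), where the main probeset was not.

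PSME1 had its highest means in jejunum (11.41) and lymph node (11.29) and its lowest in brain (9.24) and pancreas (9.15). In the order of the means each tissue overlapped with the next, except that kidney and brain arrays were apart. The jejunum arrays were at 11.41, 11.94, 10.82 and 11.45, and the pancreas arrays at 8.81, 9.33 and 9.31. Heart was at 10.87, 11.02, 10.78 and 10.52, so that heart lay toward the top for PSME1 and at the bottom for PSME2. PSME1 was higher by 1.15 in jejunum and by 1.03 in lymph node, and lower by -1.35 in pancreas and by -1.25 in brain. In the lymphoid organs together it was higher by 0.65 (SE 0.14, adjusted p = 3.31e-04). That call was lost without lymph node replicate 2 or 4 or spleen replicate 1 or 2 (lowest difference 0.51), without the pancreas (0.50), without the arrays with acinar markers (0.55) and under both housekeeping shifts (0.12 and 0.22). With all arrays, the other bright PSME1 probesets gave 0.675 and 0.723 in the lymphoid organs, calls as well. A dim one gave -0.09 without a call.

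PSME3, the nuclear PA28 protein that forms a ring by itself, had another pattern. Its log2 values were 7.70, 7.67, 7.78 and 7.86 in heart, 7.35, 7.25, 7.70 and 7.47 in skeletal muscle, and 6.72, 7.28, 7.77 and 7.57 in brain. All other tissues had means between 5.33 and 6.31, with pancreas at 5.31, 5.21 and 5.46. PSME3 was higher by 1.5 in heart (SE 0.21, adjusted p = 1.03e-06), by 1.16 in skeletal muscle (SE 0.21, adjusted p = 5.81e-05) and by 1.04 in brain (SE 0.21, adjusted p = 1.88e-04), and lower by -1.20 in pancreas (SE 0.24, adjusted p = 1.40e-04). Without the arrays with acinar markers the difference in skeletal muscle was 1.01 and no call.

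PSME4, which encodes the activator PA200, stood out in skeletal muscle. The 4 arrays had 9.33, 9.43, 9.77 and 9.84, above every array of the other tissues. Heart followed at 8.52, 8.44, 8.87 and 8.55, and the means of the other tissues ran from 8.23 in lung to 7.04 in pancreas. The difference in skeletal muscle was 1.88 (SE 0.23, 3.69-fold, adjusted p = 6.96e-08). With skeletal muscle replicate 2 as the only muscle array, the one without acinar markers, it was 1.70 (adjusted p = 0.00881 by limma) and no longer a call. The 2 other PSME4 probesets were dimmer, and their differences in skeletal muscle were 0.82 and 0.81 without a call. They did not place heart high, with differences of -0.39 and -0.17 there, also without a call. In brain they gave -1.43, a call, and -1.10 without one.

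**Figure D5:**
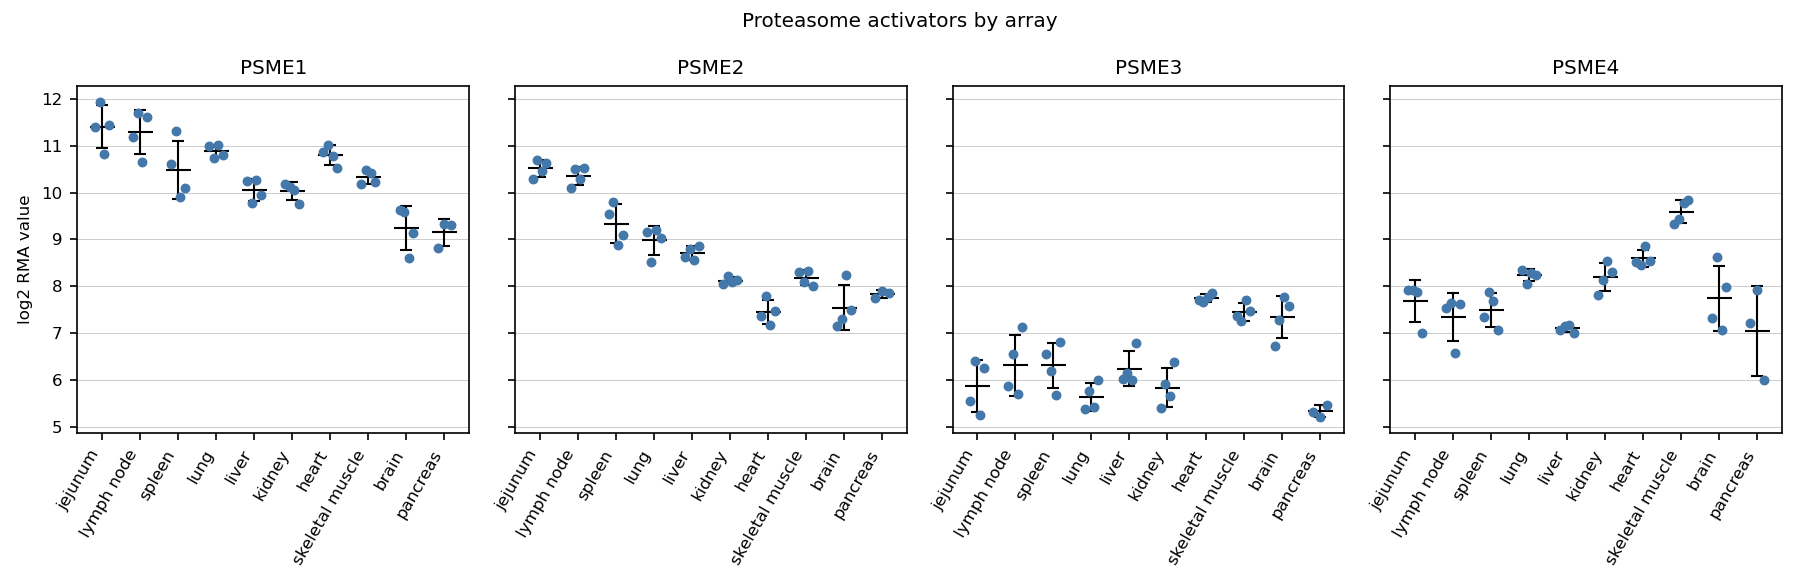
Log2 values of the activator genes PSME1, PSME2, PSME3 and PSME4 in the 39 arrays by tissue; points are arrays, black bars tissue means and error bars the SD. PSME1 and PSME2 are highest in jejunum and lymph node, PSME3 in heart, skeletal muscle and brain, and PSME4 in skeletal muscle, where all 4 arrays exceed those of other tissues.

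The genes of the 20S core and 19S particle other than the inducible and thymic ones varied less between tissues. Of these 28 genes, which include PSMB5 and PSMB6, 27 reached a tissue mean of at least 6, and the exception was PSMA8, an alpha subunit of the testis, with tissue means of 3.35 to 3.52. The median range of tissue means over these 27 genes was 1.46 log2 units, against 2.82 over the 16205 probesets that also reached 6. Without the pancreas the medians were 0.95 and 2.61. The profile of each gene over the 10 tissues had a median r of 0.769 with the median profile of the others, and of 0.498 without the pancreas. The lowest with all tissues was -0.224 for PSMD13, a subunit of the lid, which was at 0.569 without the pancreas, where PSMB4 was lowest at -0.326. Genes share arrays and are not independent replicates, so these values are a description.

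Pancreas was the tissue where most of these subunits were called lower. Of the 27 genes 17, PSMB5 among them, were lower there, and their median difference was -0.96, against 0.01 for all probesets. By role, 5 of 8 alpha subunits, all 4 structural beta subunits, 4 of 5 base ATPases and 3 of 8 lid subunits were lower. PSMC4, an ATPase of the base, had 6.89, 6.79 and 7.14 in the pancreas arrays and at least 7.97 in every other array, a difference of -1.78 (SE 0.17, adjusted p = 6.19e-10). PSMC5, PSMA5, PSMB3, PSMC2 and PSMB4 had differences of -1.72, -1.71, -1.66, -1.62 and -0.96, and for each of them the 3 pancreas arrays also lay below all 36 others. PSMA1, PSMA2, PSMA4, PSMA7, PSMB1, PSMB2, PSMB5, PSMC3, PSMD7, PSMD8 and PSMD11 were lower by -0.66 to -1.40 with overlap. The probeset of PSMA1 is of a kind that may also bind other transcripts.

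The pancreas count is sensitive to scaling and to single arrays. Without pancreas replicate 1, 14 of the 40 member genes were lower and 1 was higher. Under the centred housekeeping shift 13 were lower, 8 of them among the 27 subunits. Under the uncentred shift 2 were lower and 0 of the 27 subunits, while the median of the 27 stayed 0.96 below that of all probesets by construction. The housekeeping genes themselves had their lowest tissue mean in pancreas at 8.44, against 9.32 in lymph node, but they did not move together. Of the 13 genes 2 were called lower in pancreas, YWHAZ (-2.36) and SDHA (-1.37), and 0 higher. RPL32, RPL13A and RPS19 differed by -0.01, 0.13 and 0.19 without a call. ACTB and GAPDH were dim, with means of 3.14 and 3.74 there. The acinar list had its mean of 13.46 in the same arrays, and its part in the lower values was not tested. Other genes of the ubiquitin pathway were also lower in the pancreas: 7 of 15 genes of ubiquitin supply and deubiquitination (median difference -0.93) and 5 of 18 proteasome-bound factors (median -0.58), with 0 higher in either list, where 11.1% of all probesets were lower and 13.4% higher.

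Skeletal muscle had higher values of several 19S genes. PSMD7, a scaffold subunit of the lid, had 9.20, 10.15, 10.09 and 10.22 in skeletal muscle and 9.64, 9.44, 9.73 and 9.92 in heart. Outside these 2 tissues PSMD7 had lower means, and its difference was 1.14 in skeletal muscle (SE 0.17, adjusted p = 3.40e-06) and 0.88 in heart (SE 0.17, adjusted p = 1.43e-04). A second PSMD7 probeset gave 1.78 in skeletal muscle, a call. The further higher calls in muscle were PSME4, PSME3, PSMD12 at 0.93, PSMD2 at 0.80, PSMB5 and PSMC5 at 0.60. The 2 other PSMD2 probesets gave 0.41 (adjusted p = 0.0644) and 0.62 (adjusted p = 0.31) without a call, as did the other probesets of PSME4 and PSMB5. The lower calls were the 3 inducible catalytic subunits. Without the 5 arrays with acinar markers, which leaves 1 muscle array, 2 of these 10 calls remained, PSMB8 (-2.36) and PSMB9 (-2.11), and PSMD7 differed by 1.38 without a call. The count was 5 without skeletal muscle replicate 3 and 6 without replicate 4. Replicate 1 was the array least like any other, with a highest r of 0.896, against at least 0.947 for every other array of the series. Its PSMA2 value was 7.72, against 9.73, 9.49 and 9.78 in replicates 2 to 4, and its PSMA4 value 7.65, against 9.42, 8.86 and 9.44. For PSMA5 (10.36) and PSMD2 (9.91) it was the highest of the 4. The muscle means of such genes rest in part on this array.

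Brain had higher values of 2 base ATPases beside low inducible subunits. PSMC5 had 10.38, 10.02, 9.81 and 10.75 in brain, a difference of 1.04 (SE 0.14, adjusted p = 2.28e-07), and PSMC3 was higher by 0.84 (SE 0.14). The other bright PSMC3 probeset gave 0.61 in brain (adjusted p = 0.00157 by limma), which is no call. PSME3 and PSME3IP1, whose product binds PSME3, were higher too, PSME3IP1 by 1.31 (SE 0.18, adjusted p = 2.79e-07). The lower calls were PSMB8, PSMB9, PSMB10, PSME1 and PSME2, all inducible by interferon gamma. Without the arrays with acinar markers brain had 3 higher and 5 lower calls, and PSME3 differed by 0.94 without a call.

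Kidney had higher values of 2 alpha subunits. PSMA4 was at 9.85, 10.50, 10.44 and 10.72 there, a difference of 1.11 (SE 0.20, adjusted p = 5.79e-05), and PSMA7 was higher by 0.54 (SE 0.10, adjusted p = 8.86e-05). PSMB10, PSMB8, PSMB9 and PSME2 were lower. In heart PSMD7 and PSME3 were higher and PSMB8, PSMB9, PSMB10 and PSME2 lower. The count in kidney fell from 6 to 3 without kidney replicate 2, 3 or 4.

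In jejunum the 7 higher genes were PSMB8, PSMB9, PSMB10, PSME2, PSME1, PSME3IP1 at 0.98 and PSMA5 at 0.73. PSMA5, an alpha subunit, was also higher in lymph node by 0.65 and lower in liver by -0.62. The other bright PSMA5 probeset was called in lymph node (1.0), but not in jejunum (0.56, adjusted p = 0.0711 by limma) or liver (-0.36, adjusted p = 0.273). Lymph node had further higher calls for PSMB4 at 0.48 and for PSMD9 at 1.24, a chaperone of base assembly whose mean was only 5.78 there. Without the arrays with acinar markers lymph node had 7 higher calls and 1 lower, and PSME1 differed by 0.88 there without a call. In spleen PSMB8, PSMB9, PSME2 and the lid gene PSMD8, at 0.91, were higher. The other PSMD8 probeset was called lower in spleen, by -0.72 (adjusted p = 2.12e-04 by limma), so its 2 probesets made opposite calls there. In lung only PSMB8 and PSMB9 were called, and 1 of these calls was lost without lung replicate 1, 3 or 4 or pancreas replicate 3. In liver PSMA5 and PSME3IP1 (-1.10) were the only calls.

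Several calls near the threshold rested on single arrays, though the direction of none of the 54 named differences changed when 1 array was left out. PSMB9 in kidney lost its call in 29 of 39 such fits (-1.27 to -1.05) and PSMA5 in liver in 20 of 39 (-0.64 to -0.60). PSME2 in kidney lost it without any 1 of the 4 kidney arrays (-0.68 to -0.62), PSMA4 in kidney without replicate 4 (0.99), and PSMA7 there without replicate 2 or 3 (0.52 in both). PSME3 lost its call in pancreas without any 1 of the 3 pancreas arrays (-1.26 to -1.14), in brain without replicate 2, 3 or 4 (0.89 to 1.05) and in skeletal muscle without replicate 3 (1.07). PSMB10 lost it in heart without replicate 2, 3 or 4 (-1.17 to -1.11) and in skeletal muscle without replicate 2, 3 or 4 (-1.16 to -0.81). PSMB5 lost it in pancreas without replicate 1 or 2 (-0.49 and -0.70), in skeletal muscle without replicate 1 or 3 (0.61 and 0.56) and in lymph node without replicate 3 (-0.54). PSME1 in lymph node lost it without replicate 2 or 4 (0.89 and 0.92), PSME2 in spleen without replicate 1 or 2 (0.63 and 0.54), PSMD8 in spleen without replicate 3 or 4 (0.86 and 0.76) and PSMD7 in heart without replicate 3 or 4 (0.86 and 0.80).

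Where a gene had more than 1 probeset, agreement depended on brightness. Of 22 further probesets that reached a tissue mean of 6, 20 had an r over 0.5 with the main probeset over the 10 tissues (median 0.862, lowest 0.357 for PSME4). Of the 18 others, which were below 6 in every tissue, 8 had an r over 0.5 (lowest -0.549). PSMC3IP, a factor of meiotic recombination, was dim throughout with tissue means of 3.83 to 4.66. The chaperone PSMD10 had tissue means of 6.39 in skeletal muscle to 7.70 in brain, and no call.

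Genes of the same pathways were listed beside the members and tested in the lymphoid organs. Of 14 genes of antigen processing and presentation 9 were higher and 0 lower (median difference 1.0, against -0.03 for all probesets), where 12.3% of all probesets were higher and 10.6% lower. TAP1, a chain of the peptide transporter, was higher by 2.98, CTSS, a lysosomal protease, by 2.42 and NLRC5, the activator of MHC class I genes, by 1.45, while CIITA, CALR and CANX differed by -0.12, 0.33 and 0.48 without a call. Of 15 genes of the interferon pathway 12 were higher and 0 lower (median 1.24), beside the same 12.3% and 10.6% of all probesets, among them GBP1 at 3.59, IRF1 at 2.09 and IRF9 at 1.84. SOCS1 at 0.06 and ISG15 at 0.49 were not called, and IRF8 at 0.38 was.

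In lists nearer to the machinery itself the counts are read against the same 12.3% higher and 10.6% lower of all probesets. Of 18 proteasome-bound factors 2 were higher, AKIRIN2 (0.78), which brings proteasomes into the nucleus, and the deubiquitinase USP14 (0.50), and 1 was lower, NFE2L1 (-0.56), a transcription factor of proteasome genes, counts near that background. Of 15 genes of ubiquitin supply and deubiquitination 5 were higher, with USP7 at 0.89 and UBE2L3 at 0.69, and 0 lower. Of 4 assembly chaperones 1 was lower, PSMG2 at -0.39, and PSMG1 had the same difference without a call. Of 6 ubiquitin ligases of muscle, TRIM63 (-1.61) and FBXO32 (-0.87) were lower and CBLB (1.61) higher. Medians of these lists were 0.17, 0.39, -0.28 and -0.28.

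PSMB8, TAP1 and PSMB9 follow each other on chromosome 12 in the RefSeq table, next to TAP2 and within the MHC class II region. Among 15114 genes, those with a profile over the 10 tissue means most like that of PSMB9 were PSMB8 (r = 0.993), PARP9 (0.984), PLAAT4 (0.981), TAP1 (0.970), DTX3L (0.967), RIPK3 (0.963), the MHC class I gene DLA88 (0.961) and TNFRSF14 (0.959). PSME2 stood at place 36 and PSMB10 at place 1642. Those most like PSMB5 were NDUFB9 (0.955), VPS4A (0.944), GPI (0.935), ASPSCR1 (0.931), GOT1 (0.929), CAP2 (0.928), VDAC1 (0.926) and AIMP2 (0.925), all of them highest in heart or skeletal muscle. These are orderings over 10 points, given without a test.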

How the data were processed

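Total RNA of 39 samples was hybridized to the Affymetrix Canine Version 2.0 array. The deposited values are log2 expression values that the authors made in Partek by RMA, with adjustment for GC content and probe sequence, background correction, quantile normalization over all arrays and median polish. Quantile normalization gives the probe values of all arrays the same distribution, so values are relative within an array. The medians of the probeset values still ran from 3.95 to 4.11 between arrays. Precision is set by the number of arrays per tissue.

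Probesets were named from the platform's annotation: 29254 carried 1 symbol, 439 several and 13167 none, and PSMB7 was not analysed here. The means of the 10 tissues were estimated for all 42860 probesets at once with limma 3.58.1 in R 4.3.3, with moderated variances, and contrasts set each tissue against the unweighted mean of the other 9, or lymph node and spleen against the other 8. P-values were adjusted by Benjamini-Hochberg over all probesets at an FDR of 0.001, the study's threshold. The study's model also held the scan date, which was not used here. The fit was tested on simulated data. Figures and counts were made with Python 3.11.15, numpy 2.4.6, pandas 2.3.3, scipy 1.17.1 and matplotlib 3.10.9.

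The members, the gene lists and the rule for named genes were chosen with earlier results of these data known. Named were the catalytic and activator genes in all tissues, up to 3 genes with the largest called differences per tissue and direction, the 5 widest and 5 narrowest ranges, and up to 3 genes at either end of each pathway list. Further members are named to account for their role, and these and the genes CALR, CANX, IRF8, CTRL and LCAT were chosen after their values were seen. Alternatives covered the variance estimate, the replicate number as a block, the scaling, the filter on dim probesets, the pancreas, the probeset per gene, the reference and each array left out. The centred housekeeping shift, the probeset per gene for the lymphoid values and the removal of arrays with acinar markers (list mean over 5.5) were added after seeing the data. Labels do not say that a replicate number is the same dog across tissues.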

Additional observations from a re-analysis of the deposited data

Results flagged for a closer look

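Of 81 groups of 4 arrays tested over the catalytic and activator genes, 5 held an array whose gap to its nearest neighbour was above the critical share of the group's range (0.829), and chance gives about 1 in 20 such groups. PSMB9 was lowest in heart replicate 3 at 6.865, where the next array had 7.573, and in kidney replicate 2 at 7.45, next to 8.036. PSME4 was lowest in jejunum replicate 4 at 7.001, next to 7.882, and in lymph node replicate 3 at 6.561, next to 7.537. PSMB5 was lowest in lung replicate 4 at 9.853, next to 10.065.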

How the results depend on the processing

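Leaving out 1 array at a time gave 23 to 29 member genes by the F test, 8 to 9 in brain, 4 to 6 in heart, 5 to 7 in jejunum, 3 to 6 in kidney, 1 to 2 in liver, 1 to 2 in lung, 6 to 9 in lymph node, 15 to 27 in pancreas, 5 to 11 in skeletal muscle, 3 to 4 in spleen and 7 to 10 in the lymphoid organs. Lymphoid differences then ran from 3.87 to 4.04 for PSMB8, 2.95 to 3.06 for PSMB9, 1.17 to 1.38 for PSMB10, 0.51 to 0.76 for PSME1, 1.35 to 1.5 for PSME2, -0.67 to -0.55 for PSMB5 and -0.19 to -0.01 for PSMB6, and those of PSMB8 minus PSMB5 from 4.51 to 4.68 and of PSMB9 minus PSMB6 from 3.06 to 3.20. With the uncentred housekeeping shift the counts were 3 in kidney, 1 in liver, 1 in lung, 5 in lymph node, 4 in pancreas and 2 in spleen, PSMB10 (0.74) and PSME1 (0.12) lost their lymphoid calls, and PSMB5 in pancreas turned to 0.10. With the centred shift they were 13 in heart, 1 in liver, 15 in pancreas and 15 in the lymphoid organs, PSMB6 was called lower (-0.56) and PSME1 was at 0.22. Liver also had 1 call with ordinary or trended variances, equal medians, other probesets or without the arrays with acinar markers, lung 1 with ordinary variances and spleen 2 without pancreas. Without arrays with acinar markers skeletal muscle had 2 calls and PSME1 was at 0.55, or at 0.58 without all muscle arrays, and without pancreas PSME1 was at 0.50. With the probeset of highest variance PSMB5 was at -0.54 without a call, and PSMD8 in spleen turned to -0.72, a call. With the mean of probesets PSMB8 minus PSMB5 was 3.93, and against the median tissue PSMB8 was at 5.22 and PSMB9 at 3.73. The cause of these changes was not tested. PSMB7 had no value under any alternative. The number of arrays limits all these values.

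With the replicate number as a block the F test called 25 member genes, and the contrasts 10 in brain, 3 in lung, 10 in lymph node, 25 in pancreas and 11 in the lymphoid organs; the other tissues kept their counts and all 54 results of single genes kept their call. Over 171 pairs of arrays with the same number in different tissues, the deviations had an r of -0.292 to 0.46 (median 0.138), with 101 over 0.1, and 30 of 39 arrays correlated best with their own number, which is a hint from the data, and not from the design, that a number may mark a dog.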
